A study of Mus musculus with 6 samples.

Results

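The mRNAs encoded by the mitochondrial genome were followed in mouse cell lines of SCLL. The abbreviation stands for stem cell leukemia and lymphoma, a malignancy of blood cells in which the kinase of FGFR1, a fibroblast growth factor receptor, is fused to another protein. The 10 mRNAs were chosen by gene symbol, as mt-Nd1, mt-Nd2, mt-Nd4, mt-Nd5, mt-Nd6, mt-Cytb, mt-Co1, mt-Co2, mt-Co3 and mt-Atp6, and all 10 have a row among the 17169 entries of the expression table. They were picked with their ratios to DMSO already known, so those ratios are a description here and carry no test. The 3 lines, BBC, ZNF and BCRF8C, came from bone marrow of diseased Balb/c mice. BGJ398 (infigratinib) is a small molecule that blocks the FGFR kinases, and DMSO is its solvent. The 6 groups were BGJ398 and DMSO in BBC, BGJ398 and DMSO in ZNF, and BGJ398 and DMSO in BCRF8C, all at 24 h. Each group has 1 library, so a difference within a line has no replicate check. By the order in which the treatment protocol lists the cultures BBC2, ZNF112 and BCRF8C, the BGJ398 doses were 30 nM in BBC, 3 nM in ZNF and 1.5 nM in BCRF8C. That assignment is an assumption, and line and dose cannot be told apart. All groups are cultured lines of the same disease, with no normal counterpart among them.

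Mitochondria keep a small circular genome of their own, present in many copies per cell. Each strand is transcribed into long precursor RNAs by a dedicated polymerase, and the transfer RNAs that lie between most genes are cut out to release the messenger RNAs. All of the proteins made from them are subunits of the respiratory chain or of ATP synthase, where they sit beside many subunits that are encoded in the nucleus, translated in the cytosol and imported. A working complex therefore needs products of both genomes. The mitochondrial genome holds 13 protein-coding genes in the GENCODE annotation, and 12 of them have a row. mt-Nd3 and mt-Atp8 have a row without belonging to the 10, and mt-Nd4l was not analysed here.

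Of the 10 mRNAs, 9 are read from the plus strand of the annotated genome and mt-Nd6 alone from the minus strand. mt-Nd6 also differs in base composition, with 28.1% G and 5.97% C, whereas the other 9 hold 8.0 to 16.1% G and 23.8 to 27.7% C. Genes are packed so closely that some share bases, and the sequences of those shared ends are shown because reads in them belong to both genes. Sequences were read from the GENCODE M21 transcripts (build GRCm38). In the first, at chrM:7907-7989 on the plus strand, capitals mark the 43 bases that both mt-Atp8 and mt-Atp6 contain.
mt-Atp8 and mt-Atp6: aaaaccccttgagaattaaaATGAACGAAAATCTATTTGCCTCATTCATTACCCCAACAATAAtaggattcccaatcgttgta
In the second, at chrM:8577-8637 on the plus strand, the capital is the last base of mt-Atp6 and at the same time the first base of mt-Co3.
mt-Atp6 and mt-Co3: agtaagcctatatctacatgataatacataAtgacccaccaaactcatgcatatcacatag
The ends of mt-Nd5 (chrM:13522-13565, plus strand) and mt-Nd6 (chrM:13552-13595, minus strand) are each given 5′ to 3′ as transcribed. Capitals mark the 14 bases over which these transcripts overlap in opposite directions.
mt-Nd5: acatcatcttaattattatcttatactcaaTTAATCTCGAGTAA
mt-Nd6: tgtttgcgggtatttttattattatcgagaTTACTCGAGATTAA
The table gives such overlapping genes a common locus, so 4 of the 10 share their coordinates with another of the 10. On chromosome MT of NCBIM37, mt-Atp6 and mt-Co3 have the locus 7766 to 9390, and mt-Nd5 and mt-Nd6 the locus 11742 to 14070. mt-Nd1 has the locus 2751 to 3842, together with the transfer RNA rows mt-Ti and mt-Tq. mt-Co1 has the locus 5328 to 6938, together with mt-Ts1. The locus is 3914 to 5016 for mt-Nd2, 7013 to 7696 for mt-Co2, 9877 to 11544 for mt-Nd4 and 14145 to 15288 for mt-Cytb. A locus can be longer than the gene, as for mt-Nd1 with 957 bases in a locus of 1092. Strand-specific counting is not given in the sources used here, and without it reads of mt-Nd5 and mt-Nd6 in their overlap cannot be told apart.

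Copies of mitochondrial genes have also been carried into the nuclear genome, and 9 of the 10 mRNAs match at least 1 annotated nuclear transcript at 90% identity or more over at least 100 bases. mt-Nd1 has no such match among the annotated transcripts. Gm10925 (ENSMUSG00000090378, NCBIM37 chromosome 1, 24620814 to 24621627) is identical to mt-Atp6 over 678 of its 681 bases. It stood at 22.7 FPKM with BGJ398 against 42.5 with DMSO in BBC, 158 against 177 in ZNF and 92.5 against 65.1 in BCRF8C. FPKM is a fragment count divided by transcript length and by the number of mapped fragments, and these values amount to between 3.19 and 19.1% of mt-Atp6 in the same library. How reads in the identical stretches were divided is not given in the sources used here, so the level of mt-Atp6 is uncertain. mt-Co2, mt-Co3 and mt-Nd4 have identical stretches of 681, 783 and 876 bases in nuclear transcripts that were not analysed here, and their levels are uncertain in the same way. mt-Co1 matches the nuclear transcript Gm29216, also not analysed here, at 99.8% over 483 bases, so the level of mt-Co1 is uncertain too. The other 5 copies with a row stayed at or under 7.89 FPKM, at most 2.16% of their mitochondrial counterpart. Gm13340, the copy of mt-Co1 on chromosome 2, differs from it at 37 positions over 1545 bases. The stretch from base 460 to base 519 shows how close they are, with the 4 differing bases in capitals.
mt-Co1: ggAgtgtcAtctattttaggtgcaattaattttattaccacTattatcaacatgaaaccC
Gm13340: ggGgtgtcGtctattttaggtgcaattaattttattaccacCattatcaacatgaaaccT

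The lines differed in lineage genes. Ptprc, the leukocyte surface phosphatase CD45, was present in all 6 libraries at 39.5 to 176 FPKM. The B cell genes Cd79b and Vpreb1 were high in BBC and listed at 0 in the ZNF and BCRF8C libraries. Cd79a stood at 132 FPKM with BGJ398 and 179 with DMSO in BBC and at or under 1.12 FPKM in the other lines. Cd3g, a component of the T cell receptor complex, stood at 186 FPKM with BGJ398 and 335 with DMSO in ZNF and at or under 1.57 FPKM in the other lines. Lck was highest in ZNF, at 131 FPKM with BGJ398 and 161 with DMSO, but was not confined to it. It stood at 27.5 and 28.6 FPKM in BBC and at 5.79 and 3.12 in BCRF8C. The 10 markers reported here summed to 447 FPKM with BGJ398 against 702 with DMSO in BBC, 422 against 674 in ZNF and 63.8 against 100.2 in BCRF8C. The markers of other cell types, Kit, Mpo, Hba-a1 and Col1a1, were low. Their sum was higher with BGJ398 in each line, but of the single genes only Col1a1 was. It stood at 4.39 FPKM with BGJ398 against 0.941 with DMSO in BBC, 1.24 against 0.336 in ZNF and 7.66 against 0.0109 in BCRF8C. Kit was level in BBC, lower in ZNF (1.30 against 1.64) and higher in BCRF8C (6.32 against 0.916). Mpo was higher in BBC and BCRF8C, and Hba-a1 was lower in BBC (1.71 against 2.02). These markers summed to 8.35 FPKM with BGJ398 against 4.45 with DMSO in BBC, 2.54 against 1.98 in ZNF and 16.3 against 1.02 in BCRF8C. Of the 8 markers tested 1 was called higher by limma and 0 lower, beside 6.61% and 30.2% of all genes. It was Col1a1 (limma adjusted p = 0.0449), which was not called after median-of-ratios scaling, quantile normalization or trend removal, without the block, or without any 1 line (limma adjusted p = 0.0576 to 0.249). The part of these markers in the values of the mitochondrial mRNAs was not tested. Sequencing depth is unknown, because low FPKM values show no steps of whole reads. In bulk RNA, fewer cells of a type and less RNA per cell cannot be told apart.

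mt-Co1, mt-Co2 and mt-Co3 encode the core of complex IV, cytochrome c oxidase, which passes electrons to oxygen. They were the most abundant of the 10 in every library except that of BCRF8C with BGJ398, where mt-Nd1 stood above mt-Co3. mt-Co1 (ENSMUSG00000064351) stood at 3484 FPKM with BGJ398 against 5212 with DMSO in BBC, 10992 against 8420 in ZNF and 15334 against 16707 in BCRF8C. It ranked highest of the 10 in all 6 libraries, and at most 4 nuclear protein-coding genes exceeded it in any library. mt-Co2 stood at 2005 FPKM with BGJ398 against 3354 with DMSO in BBC, 5651 against 4903 in ZNF and 12167 against 10879 in BCRF8C. mt-Co3 stood at 1962 FPKM with BGJ398 against 4731 with DMSO in BBC, 9188 against 7194 in ZNF and 5072 against 11640 in BCRF8C. As deposited, all 3 were lower with BGJ398 in BBC and higher in ZNF, and in BCRF8C mt-Co3 was far lower while the other two were close to their DMSO level. On the log2(FPKM + 1) scale, the ratios of BGJ398 over DMSO in BBC, ZNF and BCRF8C were -0.58, 0.38 and -0.12 for mt-Co1, and -0.74, 0.20 and 0.16 for mt-Co2. For mt-Co3 they were -1.27, 0.35 and -1.20.

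The 5 complex I mRNAs encode membrane subunits of NADH dehydrogenase, the entry point of electrons from NADH. mt-Nd1 (ENSMUSG00000064341) stood at 824 FPKM with BGJ398 against 1931 with DMSO in BBC, 2819 against 2620 in ZNF and 7632 against 5769 in BCRF8C. mt-Nd2 stood at 267 FPKM with BGJ398 against 457 with DMSO in BBC, 1982 against 1270 in ZNF and 4043 against 1382 in BCRF8C. Both were lower with BGJ398 in BBC and higher in the other lines as deposited, and mt-Nd2 in BCRF8C had the highest ratio of any of the 10 in any line. mt-Nd4 stood at 137 FPKM with BGJ398 against 181 with DMSO in BBC, 649 against 373 in ZNF and 2556 against 1007 in BCRF8C. mt-Nd5 stood at 115 FPKM with BGJ398 against 162 with DMSO in BBC, 297 against 214 in ZNF and 1143 against 500.0 in BCRF8C. mt-Nd6 stood at 195 FPKM with BGJ398 against 247 with DMSO in BBC, 364 against 196 in ZNF and 1863 against 1073 in BCRF8C. These were the least abundant of the complex I group, and mt-Nd5 was the lowest of the 10 in 5 libraries, with mt-Nd6 below it in ZNF with DMSO. The log2 ratios in BBC, ZNF and BCRF8C were -1.23, 0.11 and 0.40 for mt-Nd1, and -0.77, 0.64 and 1.55 for mt-Nd2. They were -0.40, 0.80 and 1.34 for mt-Nd4, -0.49, 0.47 and 1.19 for mt-Nd5, and -0.34, 0.89 and 0.80 for mt-Nd6. mt-Nd6, the one mRNA from the opposite strand, had the highest ratio of the 10 in both BBC and ZNF.

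mt-Cytb encodes cytochrome b, the subunit of complex III at which ubiquinol is oxidized, and mt-Atp6 encodes the membrane subunit of ATP synthase along which protons pass. mt-Cytb (ENSMUSG00000064370) stood at 258 FPKM with BGJ398 against 450.0 with DMSO in BBC, 1165 against 1080.3 in ZNF and 3592 against 2863 in BCRF8C. mt-Atp6 stood at 252 FPKM with BGJ398 against 363 with DMSO in BBC, 1357 against 931 in ZNF and 2895 against 1392 in BCRF8C. As deposited, both were lower with BGJ398 in BBC and higher in ZNF and BCRF8C. Their log2 ratios in BBC, ZNF and BCRF8C were -0.80, 0.11 and 0.33 for mt-Cytb and -0.52, 0.54 and 1.06 for mt-Atp6.

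**Figure D1:**
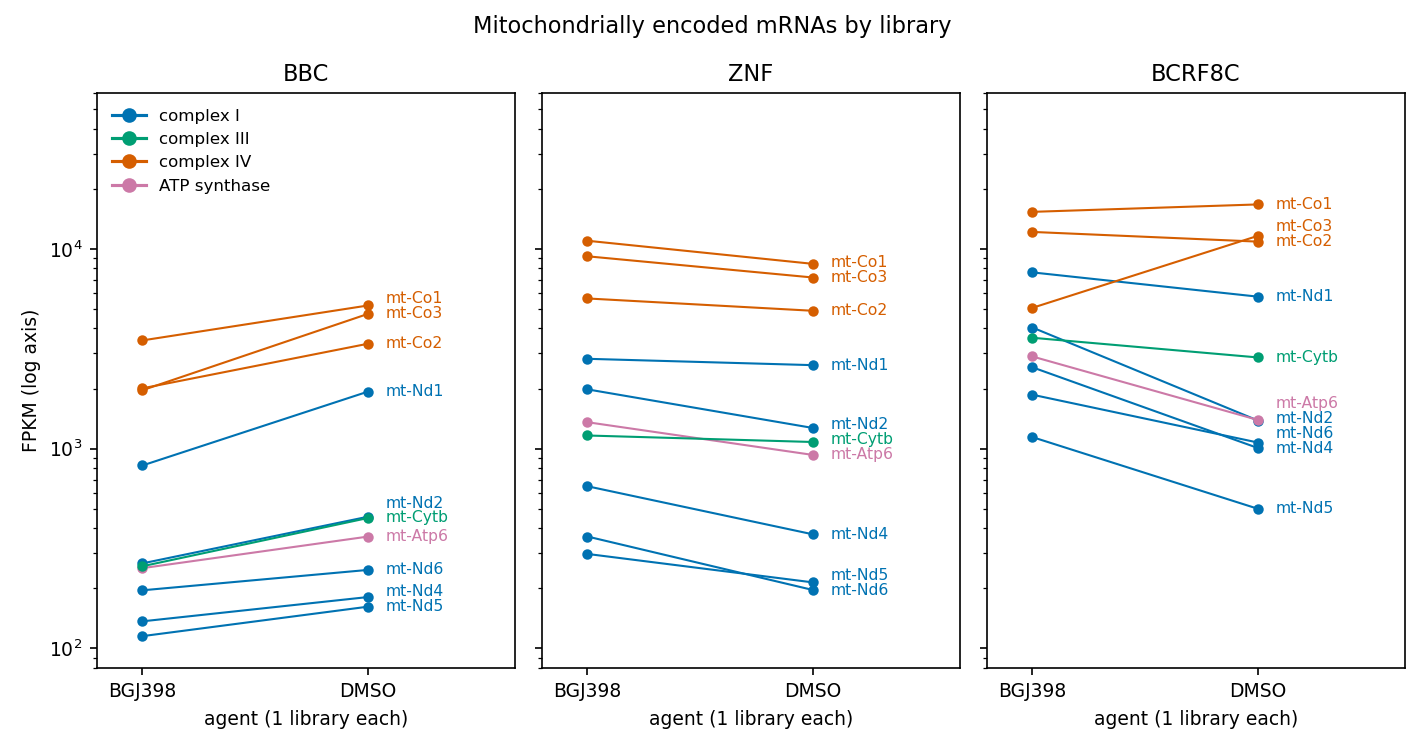
FPKM (log axis) of the 10 mitochondrially encoded mRNAs in each line, BGJ398 on the left and DMSO on the right, 1 library per point, coloured by complex. As deposited, all 10 have the lower value with BGJ398 in BBC and the higher value with BGJ398 in ZNF, and in BCRF8C mt-Co3 stands at 5072 FPKM with BGJ398 and 11640 with DMSO.

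As deposited, the median log2 ratio of the 10 mRNAs was -0.66 in BBC, 0.43 in ZNF and 0.60 in BCRF8C, which is 0.632, 1.35 and 1.52 times the level with DMSO. The ratios ran over -1.27 to -0.34 in BBC, 0.11 to 0.89 in ZNF and -1.20 to 1.55 in BCRF8C. All 10 lay below 0 in BBC and 0 of 10 in ZNF, while in BCRF8C mt-Co1 and mt-Co3 did. The sign in BBC belongs to the deposited scale, since after each of 5 rescalings of the libraries 8 to 10 of the 10 lay above 0 there and the median was 0.45 to 0.99. In BBC, mt-Nd1 and mt-Co3 were at least 2-fold lower, beside 45.0% of the 14765 entries that average 1 FPKM or more in the line, and 0 were at least 2-fold higher, beside 8.79%. In ZNF 0 were that much lower, beside 16.3% of 12417 entries, and 0 that much higher, beside 13.2%. In BCRF8C mt-Co3 was at least 2-fold lower, beside 43.5% of 13814 entries, and mt-Nd2, mt-Nd4, mt-Nd5 and mt-Atp6 were at least 2-fold higher, beside 21.7%. These ratios were known when the mRNAs were chosen, and nothing is read from the counts.

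Set against all genes, most of the 10 mRNAs lay on the high side in each line. The median ratio over the 14232 entries that average 1 FPKM or more across the 6 libraries was -0.91 in BBC, -0.37 in ZNF and -0.76 in BCRF8C, as deposited. The median of the 10 stood above that of all entries by 0.25 in BBC, 0.80 in ZNF and 1.36 in BCRF8C. Above it lay 8 of the 10 in BBC, all except mt-Nd1 and mt-Co3, then 10 in ZNF, and 9 in BCRF8C, all except mt-Co3. Under the rescalings and with a pseudocount of 0.1 the gap was 0.40 to 0.97 in BBC, 0.82 to 1.15 in ZNF and 1.47 to 3.26 in BCRF8C. Across the 3 lines the mean log2 ratio ran from -0.70 ± 0.92 for mt-Co3 to 0.58 ± 0.89 for mt-Nd4 (SD, n = 3 lines), and for each of the 10 the SD over the lines exceeded the size of the mean. A limma fit over all 14232 entries, with the line as a block, called 30.2% of them lower and 6.61% higher with BGJ398 at an adjusted p under 0.05. In either direction 0 of the 10 were called (limma adjusted p = 0.471 to 0.947). By unadjusted p under 0.05 in limma there were 0 of the 10, beside 7812 of the 14232 entries. With median-of-ratios scaling, quantile normalization or the expression trend removed, 3, 5 and 6 of the 10 had an unadjusted p under 0.05 in limma. Of the 14232 entries 5756, 3283 and 3084 did on the same scales, and 0 of the 10 were called. Nothing is read from these counts. Each p reflects the spread of 3 different lines at 3 assumed doses. The 5236 calls over all genes were 0 without BBC and 1648 without BCRF8C.

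Abundant nuclear genes were lower with BGJ398 as deposited. Each mRNA was therefore set beside the 50 nuclear entries nearest to it in mean log2(FPKM + 1) of the line. For the most abundant mRNAs, and for most of the 10 in BCRF8C, these neighbours were not of like level, because few nuclear entries stood so high. Those of mt-Co1 spanned 1522 to 10482 FPKM in BBC, 2054 to 31435 in ZNF and 891 to 107173 in BCRF8C. Those of mt-Nd5 spanned 126 to 148, 224 to 284 and 483 to 1158. In BCRF8C the neighbours spanned 632 to 2786 FPKM for mt-Nd6, 656 to 3655 for mt-Nd4 and 701 to 5535 for mt-Atp6. The gap to neighbours in BCRF8C is therefore not closely matched for level. Relative to the median of those neighbours, the median of the 10 was 1.13 higher in BBC, 1.13 higher in ZNF and 3.06 higher in BCRF8C. All 10 stood above their neighbours' median in ZNF (by 0.77 to 1.81) and BCRF8C (by 1.19 to 3.88). In BBC 9 did, mt-Co3 stood at -0.05 and mt-Nd4 led at 1.56. The neighbours pooled over the 10 had median ratios of -1.70 in BBC, -0.82 in ZNF and -2.59 in BCRF8C, as deposited. They are a mixed group in which 172 of 298, 129 of 227 and 42 of 90 are protein-coding. In BBC the gap depended on how neighbours were found, and it was -0.19 when they were taken by their level in the BGJ398 library alone.

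**Figure D2:**
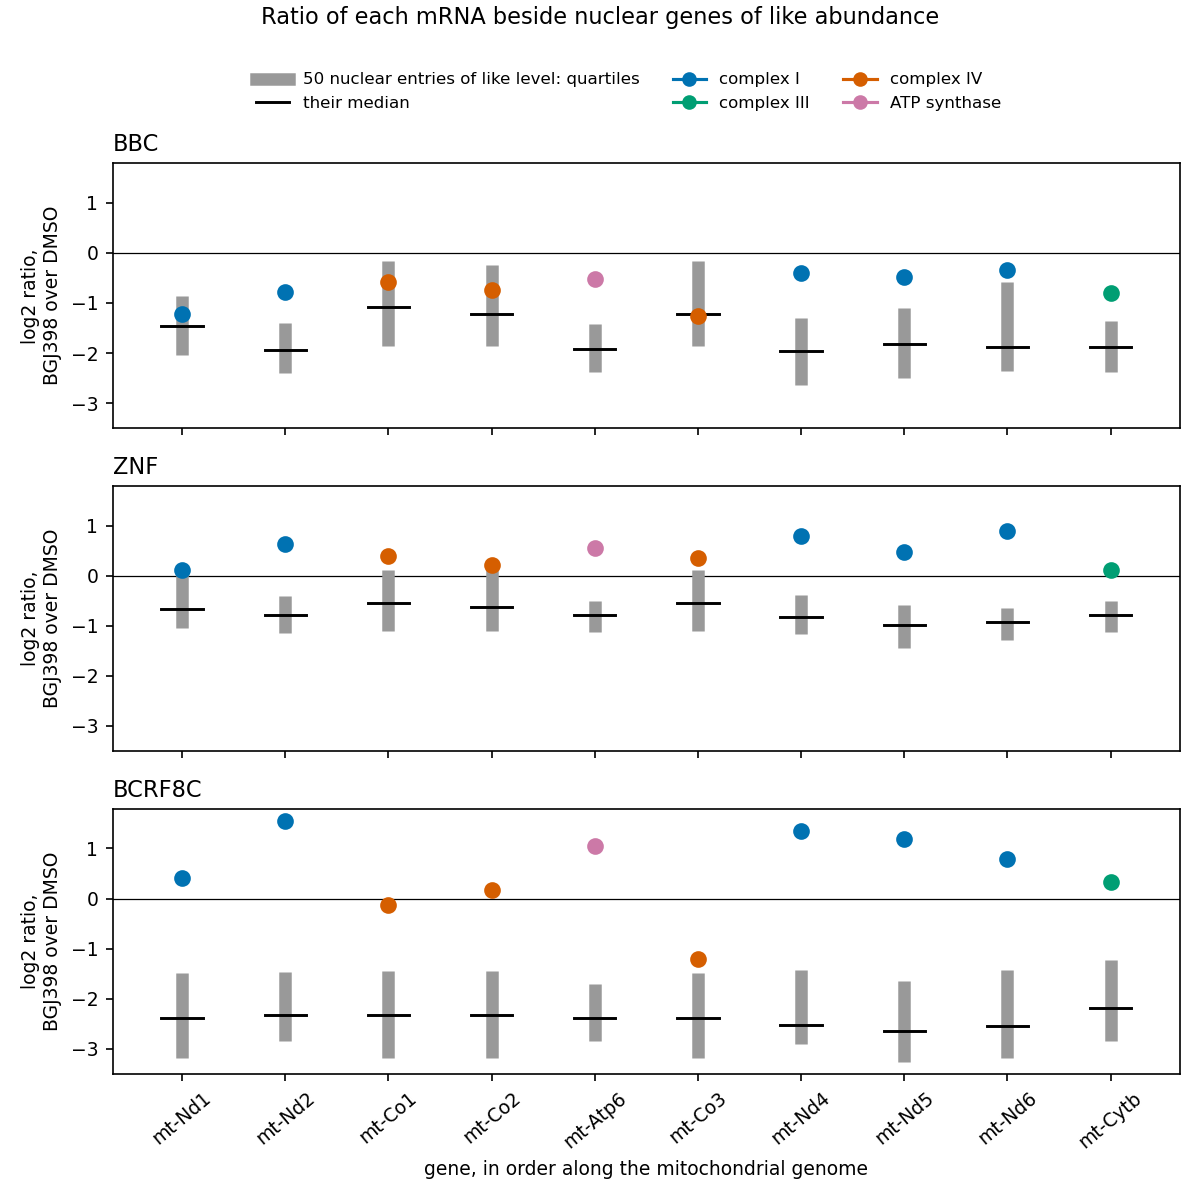
Log2 ratio of BGJ398 over DMSO (log2(FPKM + 1) scale, as deposited) for each mRNA, as a point coloured by complex in order along the mitochondrial genome. A grey bar gives the quartiles and a black line the median of the 50 nuclear entries nearest in level. For the most abundant mRNAs, and for most mRNAs in BCRF8C, those entries span a wide range of levels. Every point lies above its black line in ZNF and BCRF8C, and in BBC all except mt-Co3 do.

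Among nuclear protein-coding genes that average 100 FPKM or more in the line, few had a ratio above the median of the 10. They numbered 32 of 425 in BBC (7.53%), 10 of 515 in ZNF (1.94%) and 10 of 480 in BCRF8C (2.08%). The median ratios of these abundant genes were -2.06, -0.97 and -2.20, as deposited. Within the 10, the more abundant mRNAs had the lower ratios, with Pearson's r of ratio on mean level of -0.60 in BBC, -0.58 in ZNF and -0.73 in BCRF8C over 10 genes that share their libraries. Over 14205 nuclear entries the same r was -0.36, -0.40 and -0.54.

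The nuclear subunits of the respiratory complexes come from the other genome but join the same assemblies. All 74 that were tested, 36 of complex I, 4 of complex II (which has no mitochondrial subunit), 9 of complex III, 10 of complex IV and 15 of ATP synthase, had a lower ratio than the median of the 10 in every line. That position was common among abundant nuclear genes. Of the nuclear protein-coding genes that average 100 FPKM or more in the line, only 7.53% in BBC, 1.94% in ZNF and 2.08% in BCRF8C lay above the median of the 10. The median ratio of the 74 was -2.44 in BBC, -1.01 in ZNF and -2.60 in BCRF8C as deposited, beside -2.06, -0.97 and -2.20 for those abundant genes. The median of the 74 stayed below 0 after each rescaling except that of ZNF to an equal nuclear FPKM sum, where it was 0.29. The median of the 10 exceeded that of the 74 by 1.78 in BBC, 1.44 in ZNF and 3.20 in BCRF8C, and by 1.71 to 1.82, 1.22 to 1.45 and 3.20 to 4.04 under the rescalings and with a pseudocount of 0.1. As deposited, not even the lowest of the 10 overlapped the highest of the 74. The margin was narrow in BBC, where mt-Co3 stood at -1.27 and Ndufa11 at -1.35, and in BCRF8C, where mt-Co3 stood at -1.20 and Cox6c at -1.21. It was wider in ZNF, where mt-Nd1 stood at 0.11 and Ndufc1 at -0.28. With a pseudocount of 0.1 the highest subunit in BBC was Uqcrh at -1.45, against -1.27 for mt-Co3. In BCRF8C the margin then stayed narrow, with mt-Co3 at -1.20 and Cox6c at -1.22. With quantile normalization 8 nuclear subunits in BBC and 5 in BCRF8C stood above mt-Co3, and with the expression trend removed 1 did in BBC.

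A ratio taken within a library is free of any single scale factor for that library. It is not free of rescaling that acts by level, such as quantile normalization or trend removal, and the folds below are from deposited values only. The summed FPKM of the 10 mRNAs was 3.57 times that of the 74 nuclear subunits with BGJ398 and 1.07 times with DMSO in BBC. In ZNF it was 4.59 times with BGJ398 and 1.79 times with DMSO. In BCRF8C it was 15.6 times with BGJ398 and 2.68 times with DMSO. The mitochondrial to nuclear ratio was thus higher with BGJ398 in each line, by 3.34-fold in BBC, 2.56-fold in ZNF and 5.80-fold in BCRF8C. Taken from medians in place of sums the folds were 3.71, 2.85 and 10.0, and without any single mRNA they were at least 3.05, 2.53 and 5.53. With 1 library per line and agent these folds have no replicate error beyond the 3 lines.

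**Figure D3:**
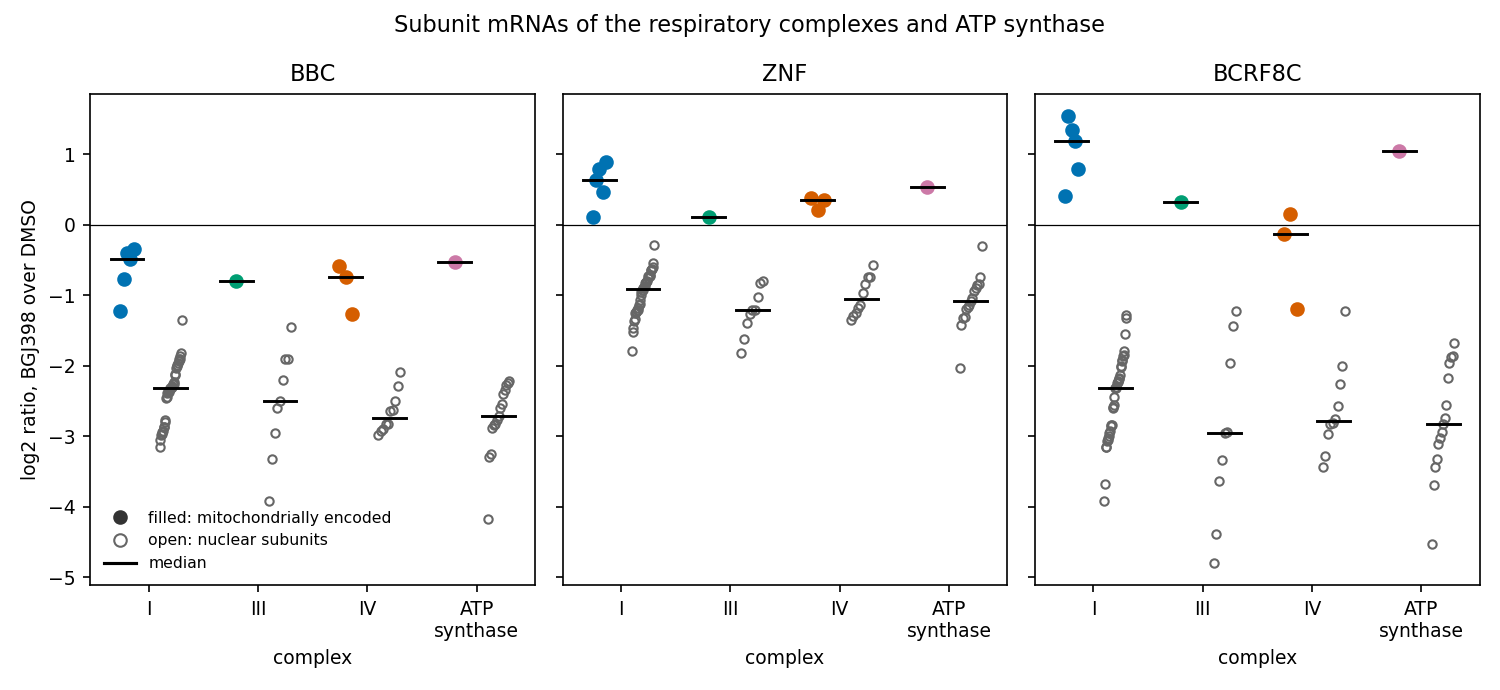
Log2 ratio of BGJ398 over DMSO (as deposited) of the 10 mitochondrially encoded mRNAs (filled) and nuclear subunit mRNAs (open) of complexes I, III and IV and ATP synthase in each line, with black lines at the medians. In every complex and line the filled points, which are the 10 mRNAs without mt-Nd3, lie above the open ones, by a difference of medians of 1.32 in complex III of ZNF up to 3.88 in ATP synthase of BCRF8C.

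Within each complex the medians of the 10 stood above the nuclear ones. In complex I the median of the 5 mRNAs exceeded the nuclear one by 1.83 in BBC, 1.55 in ZNF and 3.50 in BCRF8C. mt-Nd3, a complex I mRNA that is not among the 10, lay inside the nuclear range at -1.93, -0.46 and -1.66, with 6, 1 and 3 of the 36 nuclear subunits above it. With mt-Nd3 included the complex I differences were 1.68, 1.46 and 3.31. For mt-Cytb against the nuclear subunits of complex III the differences were 1.69, 1.32 and 3.28. In complex IV they were 1.99, 1.41 and 2.66, and for mt-Atp6 in ATP synthase 2.19, 1.62 and 3.88. By limma, 34 of 36 nuclear subunits of complex I were called lower, as were 4 of 4 of complex II, 8 of 9 of complex III, 8 of 10 of complex IV and 13 of 15 of ATP synthase, with 0 called higher, beside the 30.2% and 6.61% of all genes. The share of all genes called lower rose with level. In a separate fit of the 9109 entries that average 5 FPKM or more, 4910 were called lower and 315 higher, with a median ratio of -1.06. The subunit lists were not matched for level. In the fit over all genes, the list medians were -1.91, -2.05, -2.50, -2.15 and -2.17, against -0.69 over all genes tested. The calls in these lists depended on the scaling, and after median-of-ratios scaling, quantile normalization or removal of the expression trend 0 of them stood. Without BBC 0 were called, and without BCRF8C the counts were 2 for complex I, 3 for complex III, 2 for ATP synthase and 0 for complexes II and IV.

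Single subunits show the size of the difference. Ndufa3, an accessory subunit of complex I, stood at 45.9 FPKM with BGJ398 against 228 with DMSO in BBC, 212 against 480 in ZNF and 65.9 against 402 in BCRF8C. Its log2 ratio averaged -2.02 ± 0.74 over the lines (SD, n = 3; limma adjusted p = 0.0358). Ndufb6, another accessory subunit, had a mean ratio of -2.69 ± 1.28 (limma adjusted p = 0.0348). Cyc1, cytochrome c1 of complex III, stood at 9.95 FPKM with BGJ398 against 83.4 with DMSO in BBC, 47.9 against 112 in ZNF and 5.53 against 136 in BCRF8C (mean ratio -2.85 ± 1.59, limma adjusted p = 0.0348). Its partner mt-Cytb had log2 ratios of -0.80, 0.11 and 0.33, against -2.95, -1.21 and -4.39 for Cyc1. Cox5a, a subunit beside the complex IV core, stood at 21.8 FPKM with BGJ398 against 169 with DMSO in BBC, 34.9 against 90.7 in ZNF and 38.9 against 267 in BCRF8C (mean ratio -2.33 ± 0.85, limma adjusted p = 0.0348). Cox6c was the complex IV subunit with a value nearest to the mitochondrial ones in BCRF8C, and it was not called (mean ratio -1.44 ± 0.75, limma adjusted p = 0.0934). Atp5a1, the alpha subunit of ATP synthase, stood at 119 FPKM with BGJ398 against 821 with DMSO in BBC, 200.02 against 440 in ZNF and 94.5 against 561 in BCRF8C (mean ratio -2.15 ± 0.89, limma adjusted p = 0.0376). Atp5b, the beta subunit that forms the catalytic sites, had a mean ratio of -1.92 ± 0.92 and was not called (limma adjusted p = 0.0604). The mean ratios of these 7 stayed below 0 on all 7 scales examined except that of Cox6c, which was 0.26 with the expression trend removed.

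Lists of nuclear genes that act on mitochondrial DNA and RNA were set beside all genes, of which 30.2% were called lower. The lists were not matched for level, and in the separate fit of entries that average 5 FPKM or more 4910 of 9109 were called lower. The counts below are from the fit over all genes. In the list for RNA synthesis and processing 16 of 23 were called lower and 0 higher, with a median ratio of -1.38 against -0.69 over all genes. Tfam, which packages mitochondrial DNA and helps start its transcription, stood at 24.6 FPKM with BGJ398 against 92.3 with DMSO in BBC, 43.8 against 93.9 in ZNF and 17.01 against 58.1 in BCRF8C (mean ratio -1.55 ± 0.42, limma adjusted p = 0.0349). The entry 1810035L17Rik, named Slirp in GENCODE, encodes an RNA-binding protein that stabilizes mitochondrial mRNAs, and had a mean ratio of -2.34 ± 1.28 (limma adjusted p = 0.0348). Rexo2, an exonuclease that removes short RNAs, had a mean ratio of -1.95 ± 0.90 (limma adjusted p = 0.0348). In the DNA maintenance list 3 of 8 were called lower and 0 higher, with a median of -0.84, close to the share and the median of all genes. The called ones included Polg, the DNA polymerase of mitochondria (mean ratio -1.17 ± 0.50, limma adjusted p = 0.0410), and Dguok, a kinase for deoxynucleotides (-1.23 ± 0.65, limma adjusted p = 0.0420). Ssbp1, which binds single-stranded mitochondrial DNA, was not called (-0.88 ± 0.58, limma adjusted p = 0.104). Of 8 regulators of mitochondrial biogenesis 5 were called lower and 0 higher, with a median of -1.08. Among them were the transcription factors Nrf1 (-1.12 ± 0.34, limma adjusted p = 0.0419), Yy1 (-1.22 ± 0.26, limma adjusted p = 0.0405) and the nuclear receptor Esrra (-1.45 ± 0.65, limma adjusted p = 0.0349). Relative to the median of all genes, the biogenesis list was 0.38 lower as deposited and 0.29 lower with median-of-ratios scaling. It was 0.09 higher after quantile normalization and 0.06 higher after removal of the expression trend. The DNA maintenance list was lower than all genes by 0.15 as deposited and by 0.16 to 0.32 on the other scales. Of the RNA synthesis, DNA maintenance and biogenesis lists, 0 genes were called after median-of-ratios scaling, quantile normalization or removal of the trend, and 0 without BBC. Without BCRF8C 1 gene of the RNA synthesis list was called.

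The shares held by the 10 mRNAs were higher with BGJ398 in each line. As a percentage of all summed FPKM they came to 1.14% with BGJ398 against 0.814% with DMSO in BBC, 2.28% against 0.602% in ZNF and 9.27% against 3.03% in BCRF8C. Nuclear entries that are not protein-coding make up much of the total. Transfer RNA rows of the mitochondrial genome add to it, and in ZNF mt-Ts1 alone stood at 52950 FPKM with BGJ398 against 797058 with DMSO. The total of that DMSO library was 4518740 FPKM. Among the 10 and nuclear protein-coding genes alone the shares were 4.03% with BGJ398 against 3.02% with DMSO in BBC. On that basis they were 6.92% against 5.70% in ZNF and 17.2% against 10.0% in BCRF8C. The fold of the share was 1.33 in BBC, 1.21 in ZNF and 1.71 in BCRF8C, where over all entries it was 1.41, 3.79 and 3.06. The summed FPKM of the 10 themselves was 9500.0 with BGJ398 against 17088 with DMSO in BBC, 34464 against 27201 in ZNF and 56298 against 53212 in BCRF8C. In BCRF8C the sum was therefore within 1.06-fold of that with DMSO, and the nuclear protein-coding sum was at 0.569 times.

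The pooled share of complex IV was nearly the same with both agents in BBC and ZNF and differed in BCRF8C. Complex IV mRNAs made up 78.4% of the sum with BGJ398 and 77.8% with DMSO in BBC, and 74.95% and 75.4% in ZNF. In BCRF8C they made up 57.9% with BGJ398 and 73.7% with DMSO. Complex I mRNAs made up 16.2% with BGJ398 against 17.4% with DMSO in BBC, 17.7% against 17.2% in ZNF and 30.6% against 18.3% in BCRF8C. mt-Co3 alone held 9.01% of the sum with BGJ398 and 21.9% with DMSO in BCRF8C. Single genes moved in BBC too, where mt-Co3 held 20.7% with BGJ398 and 27.7% with DMSO, mt-Co1 36.7% and 30.5%, and mt-Nd1 8.67% and 11.3%. The log2 levels of the 10 had a Pearson's r over 10 genes of 0.991 between both BBC libraries, 0.993 for ZNF and 0.922 for BCRF8C, and between lines of 0.895 to 0.980.

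**Figure D4:**
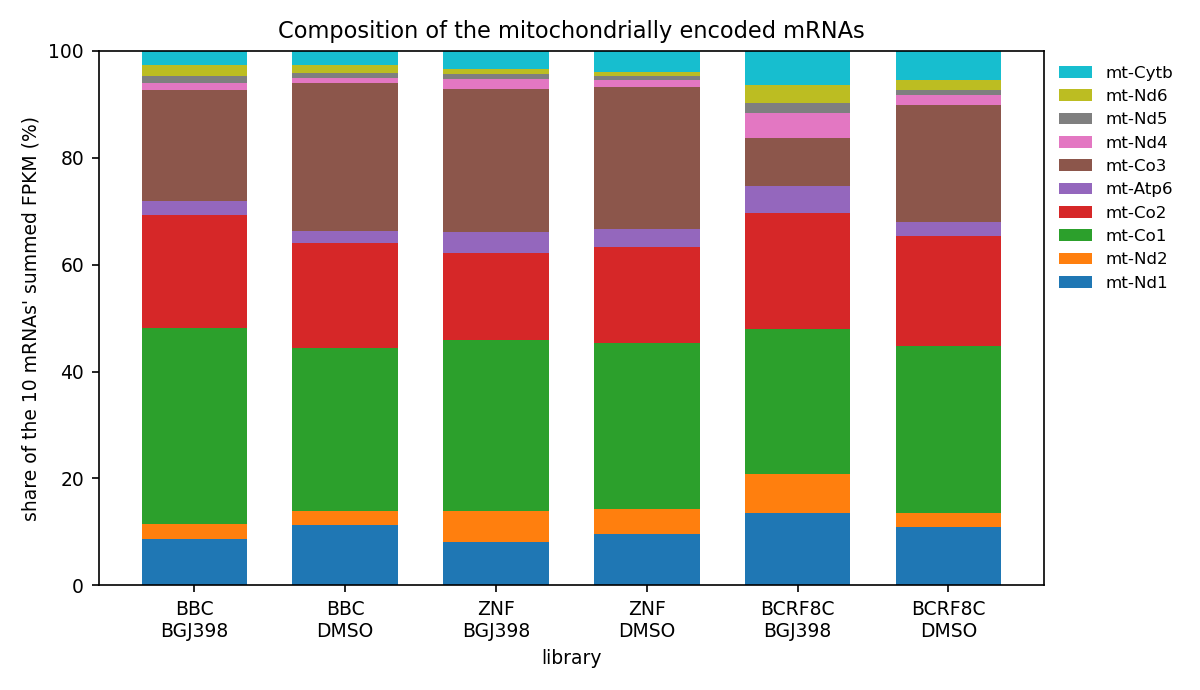
Share (percent) of the summed FPKM of the 10 mRNAs held by each, in the 6 libraries, with genes stacked in the order of the mitochondrial genome. The mt-Co3 block holds 9.01% in BCRF8C with BGJ398 and 21.9% in BCRF8C with DMSO, and mt-Co1 is the tallest block in all 6 libraries.

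Complex I and complex IV mRNAs differed in BCRF8C most. The summed FPKM of the 5 complex I mRNAs was 0.206 times that of the 3 complex IV mRNAs with BGJ398 and 0.224 times with DMSO in BBC. In ZNF it was 0.237 times with BGJ398 and 0.228 times with DMSO, and in BCRF8C 0.529 and 0.248 times, so BBC went the other way from ZNF and BCRF8C. The median log2 ratio of the 5 complex I mRNAs exceeded that of the 3 complex IV mRNAs by 0.26 in BBC, 0.29 in ZNF and 1.31 in BCRF8C. The lines were closer under quantile normalization, with 0.62, 0.51 and 0.68, and with the expression trend removed, with 0.46, 0.44 and 0.90. On the remaining scales the differences were close to the deposited ones. As deposited, the 2 sets of ratios overlapped in BBC and ZNF and did not in BCRF8C. There complex I ran over 0.40 to 1.55 and complex IV over -1.20 to 0.16. Pairs of neighbouring genes moved apart to different degrees. mt-Co3, which shares its locus with mt-Atp6, stood at 7.78 times its level with BGJ398 and 13.0 times with DMSO in BBC, at 6.77 and 7.73 times in ZNF, and at 1.75 and 8.36 times in BCRF8C. mt-Nd6, which lies on the opposite strand from mt-Nd5, stood at 1.70 times its level with BGJ398 and 1.53 times with DMSO in BBC, at 1.22 and 0.916 times in ZNF, and at 1.63 and 2.15 times in BCRF8C. The pair across strands therefore had no common direction over the lines, while the mt-Co3 to mt-Atp6 ratio was lower with BGJ398 in all 3.

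Other transcripts of the mitochondrial genome have 18 rows. mt-Nd3, another complex I subunit, stood at 533 FPKM with BGJ398 against 2031 with DMSO in BBC, 3336 against 4586 in ZNF and 2767 against 8723 in BCRF8C. Its log2 ratios of -1.93, -0.46 and -1.66 lay below those of all 10 in each line. mt-Atp8, which overlaps mt-Atp6 in the sequence printed above, stood at 1686 FPKM with BGJ398 against 2417 with DMSO in BBC, 7291 against 4248 in ZNF and 44871 against 20289 in BCRF8C. Its ratios of -0.52, 0.78 and 1.15 were close to the -0.52, 0.54 and 1.06 of mt-Atp6. mt-Rnr1, the RNA of the small ribosomal subunit of mitochondria, stood at 12345 FPKM with BGJ398 against 11278 with DMSO in BBC, 14818 against 9547 in ZNF and 21457 against 22180 in BCRF8C. It was 1.30 times the sum of the 10 with BGJ398 and 0.660 times with DMSO in BBC, 0.430 and 0.351 times in ZNF, and 0.381 and 0.417 times in BCRF8C. mt-Rnr2, the RNA of the large subunit, was listed at 0 or 0.001 in all 6 libraries, so the ribosomal RNAs as a whole have no usable level. The 14 transfer RNA rows span 59 to 75 bases, and 13 of them were at or under 0.001 in some library. Others of their values were very high. mt-Ts1 stood at 35011 FPKM with BGJ398 against 102322 with DMSO in BBC and 52950 against 797058 in ZNF. mt-Ty stood at 13202 against 137592 in BBC, 37636 against 179546 in ZNF and 15300 against 16679 in BCRF8C. Wherever both values of a line exceeded 0.001, the transfer RNA row was lower with BGJ398. Those higher with BGJ398, such as mt-Tk and mt-Ts2 in BBC and ZNF, had DMSO values of 0 or 0.001.

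The lines differed from each other in the level of the 10 mRNAs. With DMSO, 9 of the 10 had the order BCRF8C, then ZNF, then BBC, from high to low. mt-Nd6 departed from it with 247 FPKM in BBC and 196 in ZNF. BCRF8C stood at 2.46 to 6.36 times BBC (median 3.22) and ZNF at 0.793 to 2.78 times BBC (median 1.57). With BGJ398 the same order held in 9 of the 10, and mt-Co3 departed from it with 9188 FPKM in ZNF and 5072 in BCRF8C. BCRF8C then stood at 2.58 to 18.7 times BBC, with a median of 9.72. There is 1 library per line and agent, so neighbours in this order cannot be tested.

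Across the 6 libraries, 8 of the 10 mRNAs followed the mean of the other 9 with Pearson's r of 0.928 to 0.989, while mt-Nd6 did at 0.862 and mt-Co3 at 0.641. Among 735 nuclear entries that average 100 FPKM or more, the 5 whose log2 levels followed the mean of the 10 most closely were SNORA29 (r = 0.897), Atpif1 (0.864), Rps24-ps3 (0.825), snoU105B (0.812) and Ptp4a2 (0.801). Atpif1, the inhibitor protein of the mitochondrial ATP synthase, stood at 94.8 FPKM with BGJ398 against 189 with DMSO in BBC, 176 against 200 in ZNF and 439 against 710 in BCRF8C. Like the 10 it was highest in BCRF8C, but it was lower with BGJ398 in all 3 lines as deposited. The correlations describe 6 libraries in which line and agent both vary.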

How the data were processed

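RNA of the 6 libraries was sequenced after library preparation by standard Illumina procedures, per the labels' protocols. The authors deposited 1 table of FPKM values with 17169 entries and 1 column per library, and each column matched a sample title (0 unmapped). TopHat2 (version 2.0.12), bcl2fastq and the build NCBIM37 are named, per the submitters' processing notes. Which program and annotation gave FPKM, any filter, poly(A) selection and strandedness is not given in the sources used here. The sequencing depth is unknown, since low values showed no whole-read steps (strongest periodicity 0.167 to 0.285, where 1 means whole steps), so no counting interval is given.

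The scale was log2(FPKM + 1) of the deposited values, not rescaled, which understates changes of low genes. The 14232 entries that average 1 FPKM or more were tested with limma (version 3.58.1, R 4.3.3; intensity trend), for the effect of BGJ398 with line as the block. The pairing comes from the labels, as each line gave 1 library per agent. P-values were two-sided, with Benjamini-Hochberg adjustment over every gene tested, called under 0.05. The fit was run on simulated data with independent noise, capped at the median residual SD, and large added changes. The simulation lacked the shift by level seen in the real values, so it does not bear on the calls here. The fit left 2 residual degrees of freedom, and for 3 pairs the smallest p of an exact sign-flip test is 0.25. No source names repeat cultures. Members and gene lists were chosen with earlier results of these data known. All members are named, and of each list the 2 most abundant genes and the 2 with the largest mean ratio could be named, with Ndufa11 and Ndufc1 also named, after their values were seen, as the highest nuclear subunit of a line. Where a symbol of a gene list had several entries, the most abundant one was used. The fit, the neighbours and the FPKM sums kept all 548 entries that share a symbol. A lineage marker of the fixed list is not reported here. Nuclear copies were found with BLAST (version 2.17.0) in the GENCODE M21 transcripts, which also gave lengths and sequences. Alternatives were other scalings, pseudocounts, filters, neighbour choices, no block, and leaving out each line or each member. Scales set beside the deposited one were median-of-ratios, quantile, trend removed, pseudocount 0.1, and equal sums of nuclear and of nuclear protein-coding FPKM.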

Additional observations from a re-analysis of the deposited data

Results flagged for a closer look

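Direction differed between BBC and ZNF for all 10 mRNAs on the deposited scale, and with 1 library per line and agent the difference was not tested. Each value is a log2 ratio of BGJ398 over DMSO in one line minus that in another. ZNF minus BBC was 1.09 for the median of the 10, with 1.33 for mt-Nd1, 1.42 for mt-Nd2, 1.20 for mt-Nd4, 0.96 for mt-Nd5 and 1.22 for mt-Nd6. It was 0.97 for mt-Co1, 0.95 for mt-Co2, 1.62 for mt-Co3, 0.91 for mt-Cytb and 1.07 for mt-Atp6. BCRF8C minus BBC was 1.26 for the median, with 1.63 for mt-Nd1, 2.32 for mt-Nd2, 1.74 for mt-Nd4, 1.68 for mt-Nd5 and 1.13 for mt-Nd6. It was 0.90 for mt-Co2, 1.13 for mt-Cytb and 1.58 for mt-Atp6. BCRF8C minus ZNF was -0.51 for mt-Co1 and -1.55 for mt-Co3, the only mRNAs of the 10 with opposite signs in that pair of lines. After each of the 5 rescalings 8 to 10 of the 10 lay above 0 in BBC, so most differences from BBC were then of size and not of sign.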

How the results depend on the processing

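The 5236 genes called across lines came to 4 under median-of-ratios scaling, 3 under quantile normalization, 0 once the trend on expression was removed (3084 by unadjusted p under 0.05 in limma) and 7 with no replicate block. Leaving out a line gave 0 (without BBC, 2991 unadjusted) to 4974 (without ZNF) calls, and 1648 without BCRF8C. Each of the 8 mitochondrial gene lists had 0 calls under median-of-ratios scaling, quantile normalization and trend removal, without the block and without BBC. Without BCRF8C the calls were 1 in RNA synthesis and processing, 2 in complex I, 3 in complex III, 2 in ATP synthase and 0 in DNA maintenance, biogenesis, complex II and complex IV. Without ZNF they were 16 in RNA synthesis and processing, 36 in complex I, 9 in complex III, 9 in complex IV and 15 in ATP synthase. The median ratio of the 10 in BBC was 0.45, 0.67, 0.99, 0.56 and 0.62 under median-of-ratios scaling, quantile normalization, trend removal, an equal nuclear FPKM sum and an equal nuclear protein-coding FPKM sum. In ZNF it was 1.15 with the trend removed and 1.75 at an equal nuclear FPKM sum. In BCRF8C the same 5 scales gave 1.45, 2.20, 3.28, 2.38 and 1.41. The gap to neighbours in BBC was -0.19 with neighbours by BGJ398 level. The fold of the share was 1.21 in ZNF and 1.71 in BCRF8C among nuclear protein-coding genes, and the mitochondrial to nuclear fold in BCRF8C was 10.0 from medians, both chosen after seeing the data. The cause was not tested. Unknown depth limits statements on low rows.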
